A study of Mus musculus with 75 samples.

Results

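Cholesterol is built in the liver by a chain of enzymes, regulated by a membrane-bound transcription factor, and moved into, within and out of cells by transport proteins. The 30 genes described here were taken by symbol from a list of sterol synthesis, SREBP2 and cholesterol transport genes, and all 30 were found among the 55536 genes of the deposited count table. They were grouped by role into 8 genes of the mevalonate arm, 12 genes from squalene to cholesterol, 4 genes for SREBP2 and its regulators, and 6 genes of transport, uptake control and storage. The list holds no lipoprotein receptor. Uptake is represented by Mylip, whose product is a ubiquitin ligase that marks lipoprotein receptors for degradation.

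RNA from livers of wild-type C57Bl/6 mice, all labelled male, was sequenced at 3 weeks, 5 months or 10 months of age. The exposed mice were offspring of dams that drank water with tributyltin (TBT), an organotin compound that activates retinoid X receptors, up to weaning, dosed daily at 0.5 mg per kg of body weight, a concentration of 3.07 µM. Control mice came from dams given the vehicle. At 3 weeks there were 7 vehicle and 8 TBT mice. At 5 months there were 8 vehicle mice, 16 TBT mice labelled low-risk and 10 TBT mice labelled high-risk for liver tumors. At 10 months there were 6 vehicle and 5 low-risk TBT livers, 5 samples of uninvolved liver from high-risk TBT mice and 7 tumors from such mice, plus 1 vehicle liver labelled as a tumor. How risk was assigned is not given in the sources used here. If expression entered that assignment, the assignment and the differences at 5 months cannot be told apart. Samples carry separate mouse numbers, and the uninvolved livers and tumors share 6 of them. P-values measure the spread between these samples in the deposited counts, not between litters. No dam or litter is given for the samples, so littermates may be counted as separate samples.

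Library totals ran from 2.83 M to 45.4 M counts. Of the 75 libraries, 6 stood apart by a low total, many detected genes or a high mitochondrial share. They included 5-month vehicle 9 at 2.83 M counts and the vehicle tumor with 14.1% mitochondrial counts. The others at 5 months were high-risk 10 with 39669 detected genes, and high-risk 15 and low-risk 16 with 14.5% and 11.2% mitochondrial counts. At 3 weeks it was library S1 of vehicle mouse 3, with 13.5%. One 3-week TBT library labelled male, from mouse 4, held Xist at 348 CPM (counts per M counts) and 7.08 CPM summed over 4 Y-linked genes. CPM of these sex-linked genes were taken on library totals, and all other CPM here after TMM scaling. Low-risk mouse 24 of 5 months held Xist at 84.6 CPM with 237 CPM of the Y-linked genes, and every other library at most 8.39 CPM of Xist. Without mouse 24, a check added after seeing the data, 23 genes were called between the risk groups, as with it, and 0 between low-risk and vehicle liver. Uninvolved libraries 3 and 6 lay closer together than any other pair of that group, with a root mean square log2 difference of 0.142 against 0.307 for the next pair. They may come from 1 tissue, so they were summed and counted as 1 sample. The 6 hepatocyte markers summed to between 34600 and 194000 CPM across groups, so hepatocyte RNA was abundant in every group. In bulk tissue, fewer cells of a type and less RNA per cell cannot be told apart.

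As background, acetyl-CoA units are joined and reduced to mevalonate, which is phosphorylated and turned into isoprenoid units. These are condensed to farnesyl diphosphate, and 2 of those to squalene, which is closed into lanosterol and trimmed to cholesterol. When sterols in the endoplasmic reticulum are low, SCAP carries SREBP2 to the Golgi, where proteases release its transcription factor domain. When sterols are high, INSIG proteins hold SCAP back. SREBP2 binds sterol response elements near genes of the pathway together with NF-Y, which binds CCAAT boxes.

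Since the synthesis genes moved together in these data, their promoters were read from RefSeq (GRCm38.p6). A window of 250 bases before to 50 bases after the start was given for 25 of the 30 genes. Fdps, Fdft1, Sqle, Stard4 and Soat2 had none. The sterol response element was searched as TCACNCCAC and the NF-Y box as CCAAT, each on both strands. The element was found in 1 of 32 windows of these genes (3.12%) and in 1.24% of all 32851 windows. Its 1 match lay 137 bases before the start of Hmgcs1. In the 250 bases before the start, CCAAT was found in 21 of the 25 genes (84%), in 16 of the 17 synthesis enzymes with a window (94.1%) and in 37.5% of all 27025 genes. The stretches before the start of 6 genes are shown, 5′ to 3′ on the gene's strand, because these genes fell in high-risk liver and their stretches range from 3 CCAAT boxes to 0. Capitals mark CCAAT, its reverse complement ATTGG, and the sterol response element.

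Hmgcs1 (chr13:119690101-119690350, plus strand): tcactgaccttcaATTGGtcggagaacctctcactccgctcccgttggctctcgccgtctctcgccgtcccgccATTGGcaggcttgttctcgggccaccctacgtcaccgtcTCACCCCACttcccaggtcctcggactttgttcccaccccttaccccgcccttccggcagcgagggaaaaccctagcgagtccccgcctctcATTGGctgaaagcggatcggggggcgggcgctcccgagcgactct
Mvd (chr8:122443423-122443672, minus strand): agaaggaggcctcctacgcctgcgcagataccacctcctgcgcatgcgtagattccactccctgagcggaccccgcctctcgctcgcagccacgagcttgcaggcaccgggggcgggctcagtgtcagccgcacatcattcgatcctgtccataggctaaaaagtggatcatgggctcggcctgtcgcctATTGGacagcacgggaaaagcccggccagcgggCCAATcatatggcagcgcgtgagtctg
Idi1 (chr13:8885356-8885605, plus strand): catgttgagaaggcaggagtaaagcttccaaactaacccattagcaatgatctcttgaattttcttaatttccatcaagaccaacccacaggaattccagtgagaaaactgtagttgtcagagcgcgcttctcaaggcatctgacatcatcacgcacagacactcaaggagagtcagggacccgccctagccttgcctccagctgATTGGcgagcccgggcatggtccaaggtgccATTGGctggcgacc
Cyp51 (chr5:4104698-4104947, minus strand): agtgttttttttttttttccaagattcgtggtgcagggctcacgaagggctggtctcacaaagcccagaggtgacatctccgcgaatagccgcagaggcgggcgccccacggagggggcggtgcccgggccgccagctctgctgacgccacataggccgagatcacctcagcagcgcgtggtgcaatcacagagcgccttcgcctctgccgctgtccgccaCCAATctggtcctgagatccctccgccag
Tm7sf2 (chr19:6067851-6068100, minus strand): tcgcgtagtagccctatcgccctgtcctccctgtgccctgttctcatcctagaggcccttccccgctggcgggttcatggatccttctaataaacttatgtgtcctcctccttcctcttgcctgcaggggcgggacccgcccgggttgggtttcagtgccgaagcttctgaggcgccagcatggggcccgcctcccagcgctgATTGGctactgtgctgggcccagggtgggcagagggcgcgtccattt
Scap (chr9:110333038-110333287, plus strand): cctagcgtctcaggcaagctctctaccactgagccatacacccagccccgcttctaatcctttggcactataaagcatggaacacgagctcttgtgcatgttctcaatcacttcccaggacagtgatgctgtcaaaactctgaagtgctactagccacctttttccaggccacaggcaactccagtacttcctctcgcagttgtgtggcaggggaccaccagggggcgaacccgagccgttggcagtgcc

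Hmgcs1 holds 3 CCAAT boxes and the sterol response element, Mvd and Idi1 2 boxes each, Cyp51 and Tm7sf2 1 each, and Scap none. A match is a description of letters, not evidence of binding.

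Sterol synthesis transcripts were lower in high-risk liver at 5 months and in uninvolved liver of tumor-bearing mice at 10 months, and remained below vehicle in tumors. Low-risk TBT liver and 3-week TBT liver gave no gene of the list past the test. The test was edgeR's quasi-likelihood test, with p-values adjusted over all genes tested and a threshold of 0.05. In 5-month high-risk against low-risk liver 23 of the 30 genes fell and 0 rose, where 18.5% of all genes tested fell and 20.3% rose. Their median log2 fold change was −0.92, beside −0.01 over all genes. In 5-month high-risk against vehicle liver 18 fell and 0 rose, where 7.38% of all genes fell and 8.47% rose, with a median of −0.77. In 10-month uninvolved against low-risk liver 24 fell and 1 rose, where 24.7% of all genes fell and 27.7% rose, with a median of −1.06. In uninvolved against vehicle liver 23 fell and 2 rose, where 26.5% fell and 31.2% rose. In tumor against vehicle liver 22 fell and 2 rose, where 21% fell and 24.8% rose. Without overlap between the groups, 16 of the 30 genes were lower in uninvolved against low-risk liver (12.9% of all genes), 16 in uninvolved against vehicle (12.4%) and 8 in tumor against vehicle (8.16%). Within an age these comparisons share groups or mice, so their counts there do not support one another.

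The mean over the 20 synthesis enzymes shows which samples carried this. It is the mean log2 CPM of a sample minus the vehicle mean of its age. High-risk samples at 5 months ran from −1.39 to 0.06 with a median of −0.61, and low-risk samples from −0.11 to 1.02 with a median of 0.32. The groups overlapped between −0.11 and 0.06. The 5-month vehicles ran from −1.15 to 1.06 with a median of 0.01, and only high-risk mice 15 and 25 lay below that range. The lowest vehicle was number 9, the library of 2.83 M counts, and the next was vehicle 4 at −0.71. High-risk mice 9 (−0.77) and 12 (−1.11) also lay below vehicle 4. High-risk mouse 17 was below the low-risk range in 3 of the 20 enzymes, and high-risk mice 12 and 25 in 16 each, beside 9.12%, 9.5% and 14.2% of all genes tested. At 10 months the uninvolved samples ran from −1.65 to −0.87 and the low-risk samples from −0.44 to 0.23, with no overlap. Uninvolved libraries also stood apart technically, with 34.8 to 44.6 M counts against 26.4 to 33.5 M in low-risk libraries. They held 24676 to 28715 detected genes against 21663 to 22578, and 4.2% to 5.85% mitochondrial counts against 2.94% to 3.08%. Vehicle libraries of that age also lay below the uninvolved ones in each of these measures. The part of these differences in the results was not tested.

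**Figure D1:**
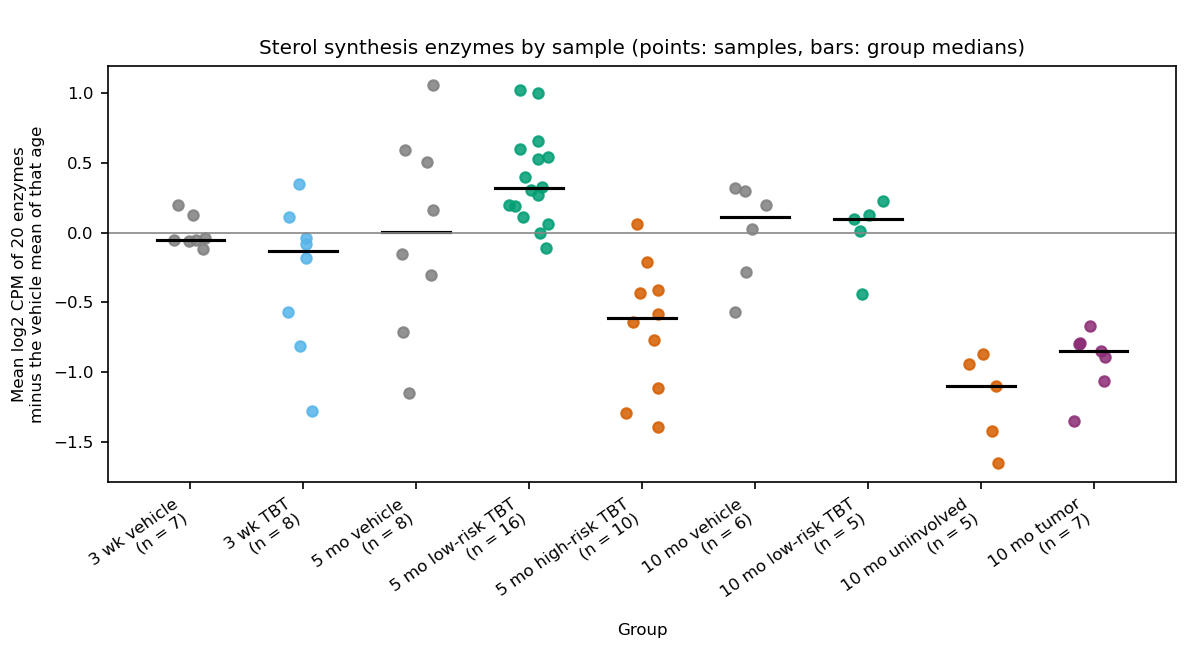
Mean log2 CPM of 20 synthesis enzymes minus the vehicle mean of the same age (y axis) for each sample (points) by group (x axis), with group medians as bars. Uninvolved livers (−1.65 to −0.87) and tumors (−1.35 to −0.67) lie below the 10-month vehicles (−0.57 to 0.32). The 5-month vehicles (−1.15 to 1.06) cover most of the high-risk range (−1.39 to 0.06), with vehicle 9 lowest and the next vehicle at −0.71. The 3-week TBT mice spread from −1.28 to 0.35.

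**Figure D2:**
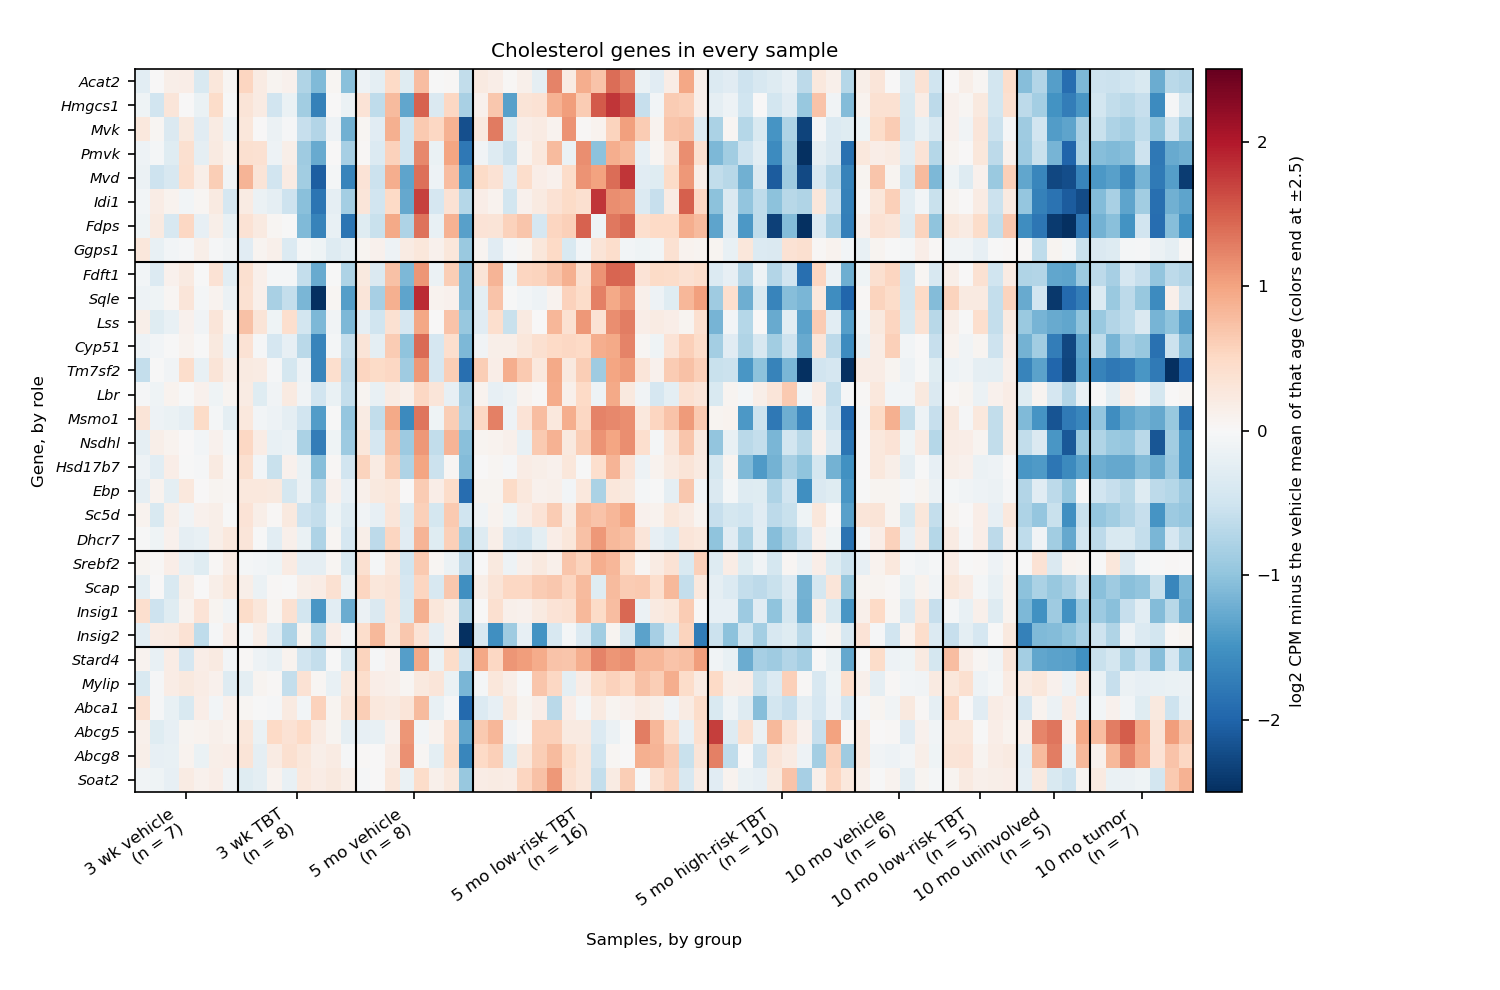
Log2 CPM minus the vehicle mean of that age (color) for each of the 30 genes (rows, by role) in each sample (columns, by group). Most synthesis rows are blue across the 5 uninvolved and 7 tumor samples, while the Ggps1 row is pale and Abcg5 and Abcg8 are mostly red there.

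In the mevalonate arm 7 of 8 genes fell in high-risk against low-risk liver at 5 months, and 7 of 8 in uninvolved against low-risk liver at 10 months. The largest decrease of the arm was that of Fdps, which makes farnesyl diphosphate, the branch point to sterols and prenyl groups. Fdps was at 16.3 (lowest), 32.1 (median) and 60.2 CPM (highest) in 5-month low-risk liver and at 3.52, 9.45 and 17.2 CPM in high-risk liver. Only the top of the high-risk range met the bottom of the low-risk range. Its level was 29.3% of that in low-risk liver (log2 fold change −1.77, SE 0.26, adjusted p = 2.92e-06). At 10 months Fdps was at 49.7, 46.7, 56.4, 26.7 and 64.7 CPM in the 5 low-risk livers and at 13.7, 11.5, 7.73, 6.25 and 11.7 CPM in the 5 uninvolved livers. All uninvolved samples lay below all low-risk samples, at 20.2% of the level (log2 fold change −2.31, SE 0.30, adjusted p = 1.67e-05). Of the exonic bases of Fdps, 26.7% are shared with Gm43738 on the same strand, so reads there cannot be assigned to 1 of them.

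Mvd, the decarboxylase that yields the first isoprenoid unit, did not overlap between the risk groups at 5 months. It was at 8.99, 15.2 and 38.7 CPM (lowest, median, highest) in low-risk and at 2.26, 6.38 and 8.64 CPM in high-risk liver. Mvd and Stard4 were the only 2 of the 30 genes with no overlap in this direction, which 0.487% of all genes tested showed. Mvd fell by 1.62 on the log2 scale (SE 0.28, adjusted p = 2.95e-05). In uninvolved liver it was at 29.1% of the low-risk level.

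Hmgcs1, the enzyme that joins acetyl units ahead of mevalonate, was more variable. In 5-month low-risk liver it ran from 79.3 to 706 CPM with a median of 310 CPM, and in high-risk liver from 96.2 to 334 CPM with a median of 172 CPM. These ranges overlapped widely, and the log2 fold change was −0.93 (SE 0.28, adjusted p = 0.00923). At 10 months Hmgcs1 was at 411, 396, 452, 276 and 502 CPM in low-risk and at 243, 211, 134, 115 and 139 CPM in uninvolved liver, without overlap. Idi1, which isomerizes the isoprenoid unit, fell by 1.22 (SE 0.29, adjusted p = 0.000999) at 5 months and by 1.76 (SE 0.24, adjusted p = 2.73e-05) at 10 months on the log2 scale. Acat2, a thiolase of acetyl-CoA with the close copy Acat3, and the kinases Mvk and Pmvk were at 57.4%, 48.1% and 43.4% of the low-risk level at 5 months, and each passed the test.

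Ggps1, which extends farnesyl to geranylgeranyl diphosphate for protein prenylation and so leads away from sterols, did not pass the test in any comparison as fitted. It was at 7.65, 10.4 and 14.1 CPM (lowest, median, highest) in 5-month low-risk and at 7.71, 10.3 and 13.1 CPM in high-risk liver. The ranges nearly coincided, and the log2 fold change was −0.02 (SE 0.11, adjusted p = 0.877). In uninvolved against low-risk liver its log2 fold change was −0.17 (SE 0.13, adjusted p = 0.294). In uninvolved against vehicle liver it was −0.27 (SE 0.13, adjusted p = 0.0839), and −0.34 with a call when uninvolved 3 and 6 were separate (adjusted p = 0.0336) or uninvolved 5 was left out (adjusted p = 0.0431).

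From squalene to cholesterol 11 of 12 genes fell in 5-month high-risk against low-risk liver, and 12 of 12 in uninvolved against low-risk and against vehicle liver (Dhcr7 against low-risk not without uninvolved 5 or 7). Tm7sf2, a sterol C14 reductase, was at 37.7, 106 and 145 CPM (lowest, median, highest) in 5-month low-risk and at 11.7, 32.7 and 52.2 CPM in high-risk liver. The high-risk maximum exceeded the low-risk minimum. Its level was 32.4% of that in low-risk liver (log2 fold change −1.63, SE 0.24, adjusted p = 3.65e-06). At 10 months it was at 126, 131, 118, 117 and 150 CPM in low-risk and at 43.7, 54.8, 34.9, 28.2 and 53.4 CPM in uninvolved liver. No uninvolved sample reached the low-risk range, and the level was 32.3% (adjusted p = 4.48e-07). Tm7sf2 shares 12.1% of its exonic bases with Vps51 on the same strand.

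Hsd17b7, a sterol 3-ketoreductase, varied little within groups at 10 months. It was at 114, 111, 93.7, 94 and 104 CPM in low-risk and at 37.7, 38.6, 29.3, 34.4 and 40.3 CPM in uninvolved liver. The groups were far apart, with a log2 fold change of −1.57 (SE 0.11, adjusted p = 1.95e-08). Squalene epoxidase, Sqle, was at 102, 81.7, 81.8, 46.2 and 103 CPM in low-risk and at 28.9, 50.2, 13, 18.2 and 20.9 CPM in uninvolved liver. Low-risk mouse 9 and the summed uninvolved sample 3 and 6 overlapped, and the log2 fold change was −1.72 (SE 0.37, adjusted p = 0.00132). Msmo1, a sterol demethylase, fell by 1.46 (SE 0.27) at 5 months and by 1.68 (SE 0.27) at 10 months, and the lanosterol demethylase Cyp51 by 1.06 (SE 0.21) and by 1.41 (SE 0.23), all on the log2 scale. Fdft1, which makes squalene, was at 46% of the low-risk level at 5 months and at 46.4% at 10 months, and shares 18.3% of its exonic bases with Ctsb on the opposite strand. The late enzymes Ebp, Sc5d and Dhcr7 were at 65.1%, 61.1% and 58.3% of the low-risk level at 5 months, and each passed the test.

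Lbr, a nuclear envelope protein that has the same C14 reductase activity as Tm7sf2, was the exception of the arm at 5 months. It was at 11.1, 15.7 and 28.6 CPM (lowest, median, highest) in low-risk and at 9.75, 15 and 23.2 CPM in high-risk liver, with a log2 fold change of −0.12 (SE 0.14, adjusted p = 0.513). In uninvolved against low-risk liver it fell by 0.40 on the log2 scale (SE 0.13, adjusted p = 0.0179).

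**Figure D3:**
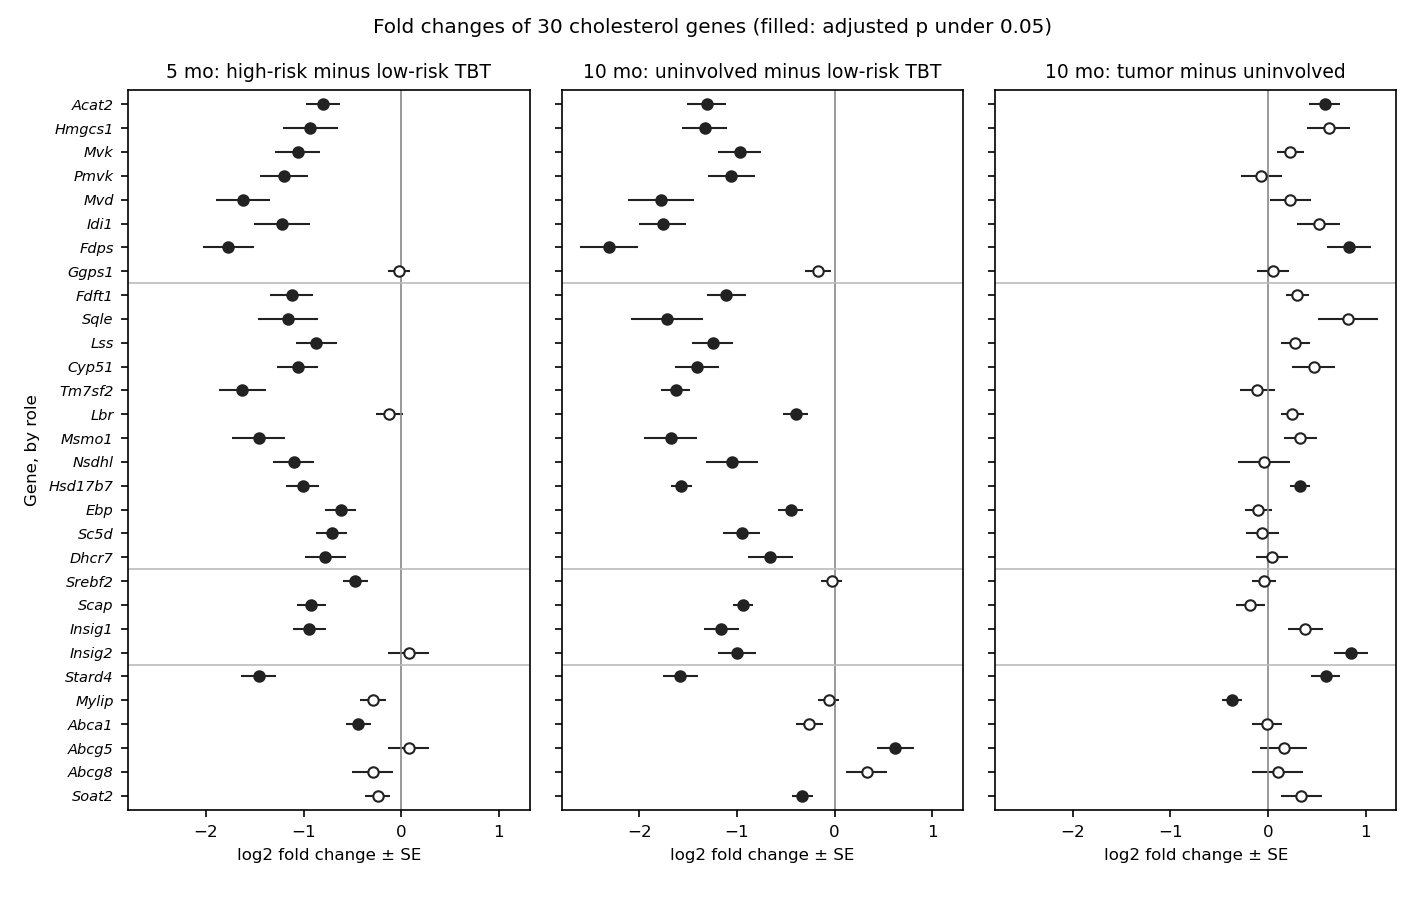
Log2 fold changes with their SE (x axis) of the 30 genes (y axis, by role) in 3 comparisons, filled where the adjusted p was under 0.05. Most synthesis genes lie left of 0 in high-risk and uninvolved liver, down to −2.31 for Fdps, and 5 genes are filled right of 0 in tumor against uninvolved liver.

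Among SREBP2 and its regulators, Scap and Insig1 fell in both risk comparisons, while Srebf2 and Insig2 each fell in 1 of them. Srebf2 encodes SREBP2 itself. It was at 32.1, 49.3 and 77.7 CPM (lowest, median, highest) in 5-month low-risk and at 28.7, 35.6 and 47.2 CPM in high-risk liver. The ranges overlapped over much of their length, and the decrease passed the test (log2 fold change −0.47, SE 0.13, adjusted p = 0.00473). At 10 months Srebf2 was at 45.8, 39.9, 40.7, 36.6 and 41.3 CPM in low-risk and at 39.7, 51.9, 31.2, 42.4 and 42.2 CPM in uninvolved liver. The low-risk values lay inside the uninvolved range, and the log2 fold change was −0.03 (SE 0.11, adjusted p = 0.846).

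Scap was at 197, 185, 156, 143 and 173 CPM in 10-month low-risk and at 79.5, 93.1, 84.3, 92.3 and 112 CPM in uninvolved liver. The groups did not overlap, and its level was 52.2% (log2 fold change −0.94, SE 0.10, adjusted p = 2.5e-06). At 5 months it was at 52.8% of the low-risk level (adjusted p = 1.27e-05). Insig1, itself an SREBP2 target, was at 52.2% at 5 months (adjusted p = 6.01e-05) and at 44.7% at 10 months (adjusted p = 7.92e-05).

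Insig2, the second SCAP anchor, took another course. At 5 months it was at 67.1, 469 and 660 CPM (lowest, median, highest) in vehicle, at 112, 286 and 553 CPM in low-risk and at 186, 279 and 397 CPM in high-risk liver. Both TBT medians lay below the vehicle median. High-risk against low-risk liver gave a log2 fold change of 0.08 (SE 0.21, adjusted p = 0.802), high-risk against vehicle −0.84 (SE 0.27, adjusted p = 0.0309; not called without high-risk 4, vehicle 1 or vehicle 2), and low-risk against vehicle −0.92 (SE 0.25, adjusted p = 0.394). At 10 months it was at 261, 328, 290, 389 and 463 CPM in low-risk and at 121, 181, 183, 193 and 219 CPM in uninvolved liver, without overlap, at 50.1% of the low-risk level (adjusted p = 0.000454). The risk difference at 10 months minus that at 5 months was −1.06 for Insig2 (SE 0.33, adjusted p = 0.143). None of the 30 genes passed this test of the difference between ages, as did 0.448% of all genes, and 3 of the 30 had an unadjusted p under 0.05.

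**Figure D4:**
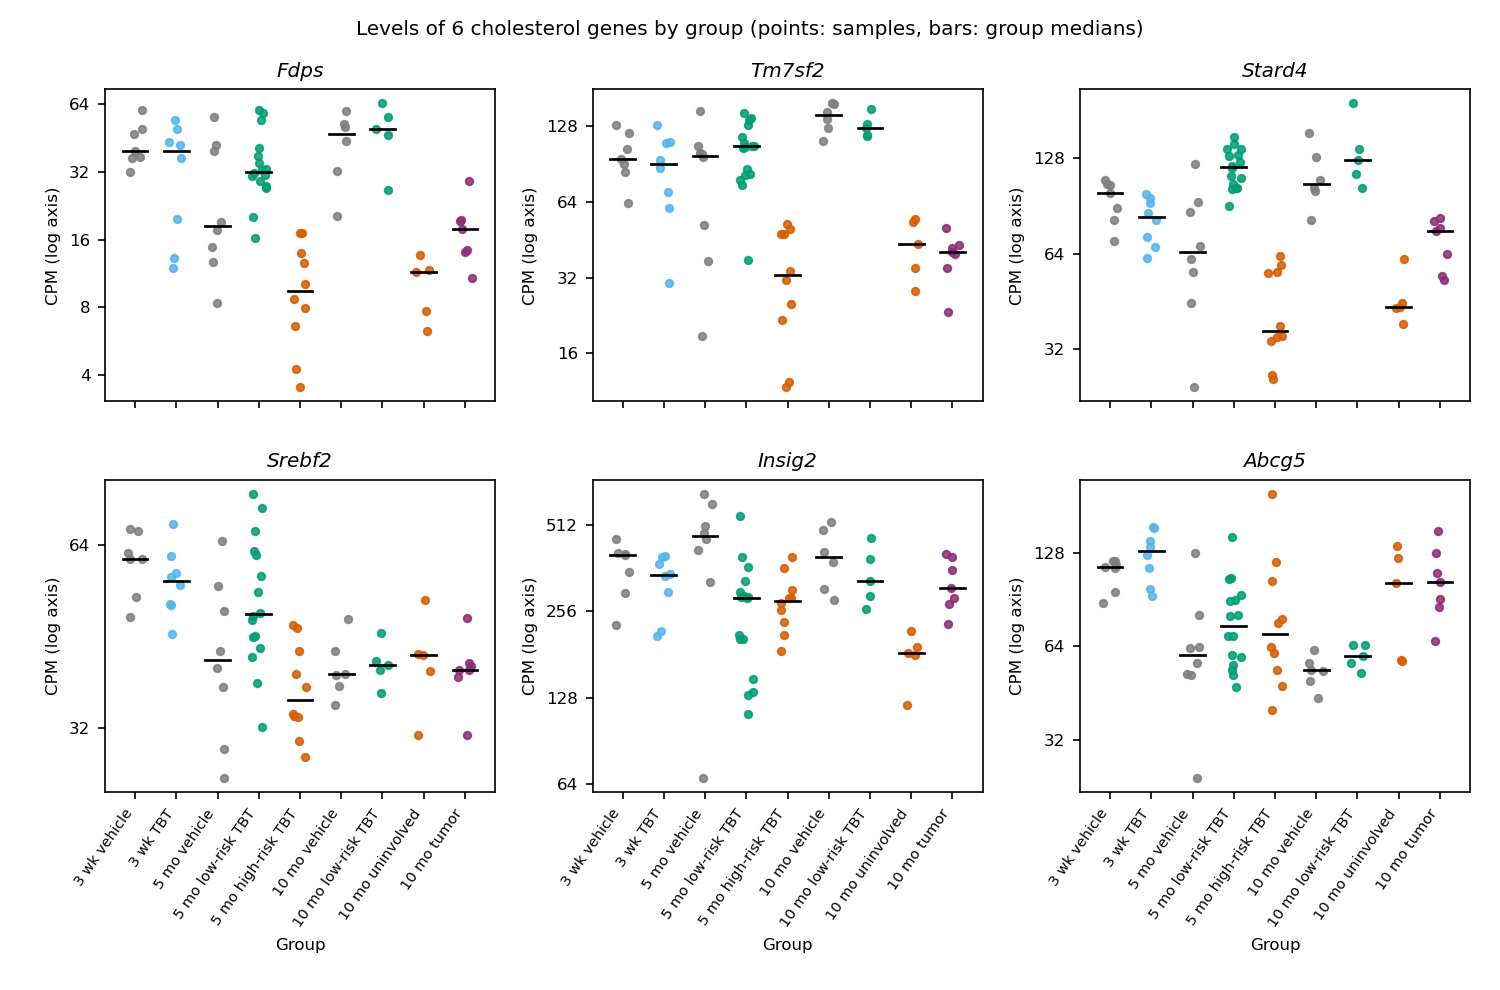
CPM (y axis, log scale) of Fdps, Tm7sf2, Stard4, Srebf2, Insig2 and Abcg5 in each sample (points) by group (x axis), with group medians as bars. Fdps, Tm7sf2 and Stard4 are low in high-risk, uninvolved and tumor samples, Srebf2 overlaps among all 10-month groups, and Abcg5 is higher in tumors (66.5 to 150 CPM) than in 10-month vehicles (43.6 to 62.1 CPM).

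The 6 genes of transport, uptake control and storage did not move as a group. Stard4, a carrier of cholesterol between membranes, behaved like the enzymes in direction. It was at 90.4, 120 and 149 CPM (lowest, median, highest) in 5-month low-risk and at 25.8, 36.5 and 63 CPM in high-risk liver. No high-risk sample reached the low-risk range, and its level was 36.2% (log2 fold change −1.46, SE 0.18, adjusted p = 1.34e-07). At 10 months it was at 190, 126, 114, 103 and 136 CPM in low-risk and at 61.4, 44.6, 43.4, 43 and 38.5 CPM in uninvolved liver, again without overlap. Against 5-month vehicle, at 24.3, 64.7 and 122 CPM, the high-risk log2 fold change was −0.75 (SE 0.21, adjusted p = 0.0149; not called without vehicle 8).

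Abcg5 and Abcg8 are neighbouring genes whose products form the exporter of cholesterol into bile, and both were called higher than vehicle in 10-month uninvolved and tumor samples. Abcg5 was at 64.5, 64.4, 52.5, 59.6 and 56.5 CPM in low-risk liver, and at 57.8, 123, 134, 57.1 and 102 CPM in uninvolved liver. Of the 5 uninvolved samples 3 lay above the low-risk range and 2 inside it, numbers 1 and 7. Abcg5 rose against low-risk liver (log2 fold change 0.62, SE 0.19, adjusted p = 0.012) and against vehicle (0.76, SE 0.18, adjusted p = 0.00188). With the mouse number of the titles as a block, which joins different mice, the value against vehicle was 0.66 with adjusted p = 0.0959. Abcg8 was at 60.3, 125, 175, 64 and 127 CPM in uninvolved and from 66.3 to 84.4 CPM in vehicle liver, with the same 2 samples low. Against low-risk liver, at 75.6 to 91.3 CPM, Abcg8 had a log2 fold change of 0.33 (SE 0.21, adjusted p = 0.202), and passed the test without uninvolved 1 (0.51, adjusted p = 0.0333) or 7 (0.48, adjusted p = 0.0492). Its increase against vehicle (0.54, SE 0.20, adjusted p = 0.0325) was lost under 11 alternatives, while in tumors it was 0.67 (SE 0.15, adjusted p = 0.0019) and lost with the title number as a block. At 5 months neither gene passed the test between risk groups as fitted, and Abcg8 was called lower without high-risk 1.

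Abca1, the exporter of cholesterol to high-density lipoprotein, fell in 5-month high-risk against low-risk liver (log2 fold change −0.44, SE 0.13, adjusted p = 0.00895). In uninvolved against low-risk liver its log2 fold change was −0.26 (SE 0.14, adjusted p = 0.122). Soat2, which esterifies cholesterol for storage and secretion, fell in uninvolved against low-risk liver (−0.33, SE 0.11, adjusted p = 0.0178). Mylip was at 81.6% of the low-risk level in 5-month high-risk liver, with adjusted p = 0.0666.

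Calls were then compared between the ages. Of the 23 that fell in high-risk against low-risk liver at 5 months, 21 (91.3%) also fell in uninvolved against low-risk liver, which is 87.5% of the 24 there. Over all genes tested in both, 67.1% of those lower at 5 months and 47.2% of those lower at 10 months were lower in both. Abca1 and Srebf2 were called only at 5 months, and Insig2, Lbr and Soat2 only at 10 months, and in none of these did the change with age pass its test. Across 5 comparisons (high-risk against low-risk and vehicle at 5 months, uninvolved against low-risk and vehicle and tumor against vehicle at 10 months), 17 genes fell in all, as 4.73% of all genes tested did; these comparisons share groups. Of the 17, 14 were synthesis enzymes and the others were Insig1, Scap and Stard4. Ggps1, Abcg5 and Abcg8 fell in none as fitted.

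The 5-month groups were sequenced in 2 labelled batches, with 7 vehicle, 6 low-risk and 3 high-risk samples in batch 1 and 1, 10 and 7 in batch 2. The fit held batch as a term. The deposited counts are named as already adjusted by ComBat-seq, with settings not given. Values in each batch may thus depend on the other batch, so fits within a batch may not be independent checks. Within batch 2 the same 23 genes fell, where 32.3% of all genes were called in either direction. Within batch 1, where 4.69% of all genes were called, 27 of 30 log2 fold changes were below 0 and only Stard4 passed the test (−1.65, SE 0.37, adjusted p = 0.0209). For Fdps the log2 fold change was −1.48 (SE 0.52) in batch 1 and −1.91 (SE 0.26) in batch 2, and for Tm7sf2 −1.69 (SE 0.51) and −1.59 (SE 0.24). Against vehicle the 5-month counts were less stable. Leaving out single samples gave 9 to 22 genes, with 9 without vehicle 8, the only vehicle of batch 2, and batch 1 alone gave 0, where 0 of 16465 genes were called in all.

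The 7 tumors were compared with the 5 uninvolved samples in an unpaired fit. Tumor 11 has no uninvolved library. Tumor libraries held 22.5 to 27.9 M counts, 22609 to 23868 detected genes and 2.64% to 3.46% mitochondrial counts. Uninvolved libraries lay above these ranges in each measure, at 34.8 to 44.6 M, 24676 to 28715 and 4.2% to 5.85%. The part of these technical differences in the results was not tested. In tumors 5 genes rose (Fdps, Acat2, Hsd17b7, Insig2 and Stard4) and Mylip fell, where 7.55% of all genes rose and 10.5% fell. The median log2 fold change was 0.24 over the 30 genes and −0.01 over all genes. Insig2 was at 271, 231, 357, 309, 285, 396 and 406 CPM in tumors 1, 3, 5, 6, 7, 11 and 12, above every uninvolved sample. It was the only 1 of the 30 genes higher without overlap, as 3.06% of all genes were, with a log2 fold change of 0.85 (SE 0.17, adjusted p = 0.0067). Fdps was at 17.9, 19.6, 14.4, 29.3, 10.8, 19.3 and 14.1 CPM in these tumors, at 178% of uninvolved liver (adjusted p = 0.0268) and 40.9% of vehicle. Its call was lost without uninvolved 5 (adjusted p = 0.0731) or uninvolved 7 (adjusted p = 0.0687).

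Stard4 ran from 52.7 to 82.9 CPM in tumors and from 38.5 to 61.4 CPM in uninvolved liver, with a log2 fold change of 0.59 (SE 0.15, adjusted p = 0.0154). Mylip was at 8.78 to 11.8 CPM in tumors and at 12 to 16 CPM in uninvolved liver, without overlap, which 3.95% of all genes showed in this direction (log2 fold change −0.37, SE 0.10, adjusted p = 0.0223). In same-numbered pairs Hmgcs1, Fdps, Insig2, Acat2 and Stard4 were higher in the tumor in 6 of 6 and Mylip in 0 of 6. Uninvolved libraries 3 and 6 entered these pairs separately. The pair differences of Insig2 on the log2 scale were 1.16, 0.40, 0.97, 0.83, 0.56 and 0.89 for mice 1, 3, 5, 6, 7 and 12. With mouse as a block over 6 pairs Hmgcs1 was called (0.48, SE 0.13, adjusted p = 0.0491) and Hsd17b7 was not (0.28, SE 0.09, adjusted p = 0.0758). That fit takes uninvolved 3 and 6 as separate mice. Over the 4 pairs without mice 3 and 6 neither Hmgcs1 (0.53, SE 0.17, adjusted p = 0.0714) nor Hsd17b7 (adjusted p = 0.152) was called, while Sqle (1.06, SE 0.20, adjusted p = 0.0211) and Cyp51 (0.52, SE 0.12, adjusted p = 0.0328) were. Leaving out single samples gave 2 to 9 genes, with 2 without uninvolved 5 and 3 without uninvolved 7. Acat2 and Hsd17b7 were each lost without tumor 1 or 6 or without uninvolved 1, 5 or 7, Acat2 also without tumor 5 and Hsd17b7 without tumor 11. Mylip was lost without uninvolved 1 or 5 and over the 4 pairs that leave out mice 3 and 6 (adjusted p = 0.107). Insig2 and Stard4 were called in every alternative run. Markers of dividing cells summed to between 12 and 84 CPM in uninvolved liver, with a median of 18.3 CPM. In tumors they summed to between 10.8 and 134 CPM, with a median of 105 CPM. Of these markers 0 of 4 passed the test, and their part in the results was not tested.

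**Figure D5:**
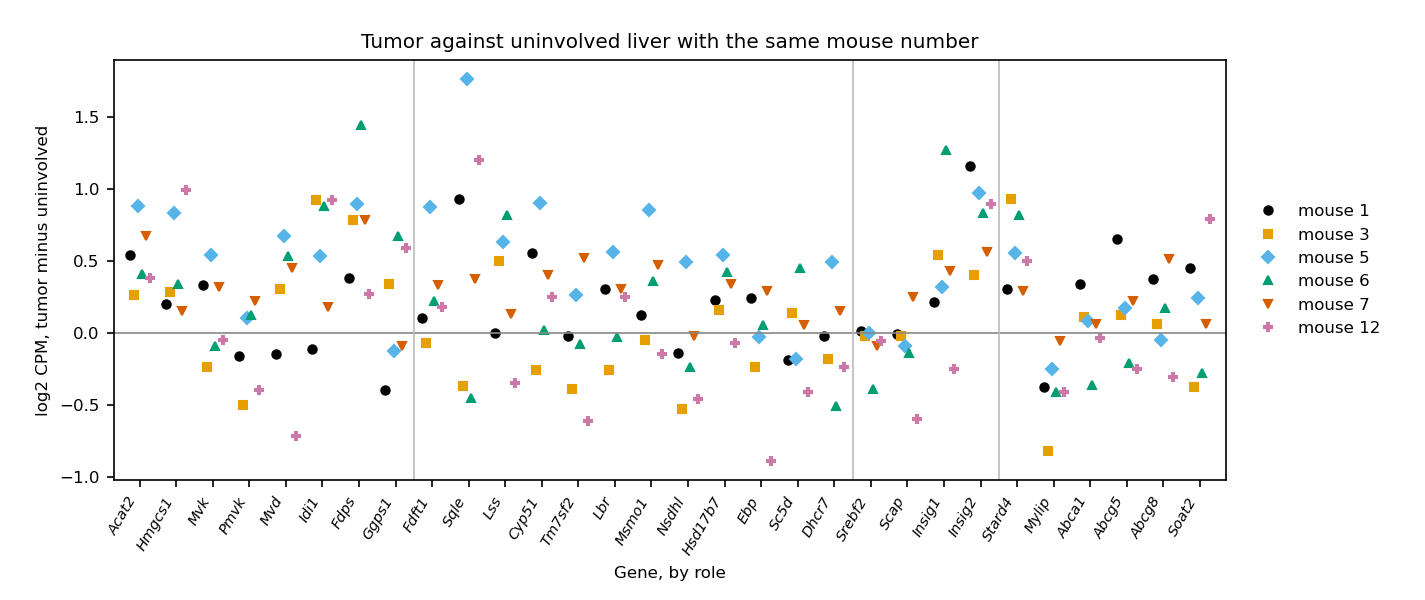
Log2 CPM of the tumor minus the uninvolved liver with the same mouse number (y axis) for 6 mice (symbols) and 30 genes (x axis, by role). All 6 points lie above 0 for Hmgcs1, Fdps, Acat2, Insig2 and Stard4, and all 6 below 0 for Mylip.

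Against vehicle, the median log2 fold change of the 30 genes was −0.75 in tumors and −1.11 in uninvolved liver, beside −0.01 and 0.06 over all genes. Tm7sf2 was at 27.8% of the vehicle level (log2 fold change −1.85, SE 0.14, adjusted p = 8.62e-07), Hsd17b7 at 42.6% (adjusted p = 5.94e-07) and Scap at 49.1% (adjusted p = 3.73e-05). Sqle was at 59.5% with adjusted p = 0.043 and was lost under most alternatives, and Insig2 at 79.3% with adjusted p = 0.105. Abcg5 was at 194% (adjusted p = 0.000194), with no tumor inside the vehicle range, which 11.2% of all genes showed in this direction.

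None of the 30 genes passed the test between low-risk TBT and vehicle liver by edgeR. At 5 months 0 of 30 were called, 2 had an unadjusted p under 0.05, and 0% of all genes were called. DESeq2 called Insig2 there, with adjusted p = 0.046. At 10 months 0 of 30 were called, 0 had an unadjusted p under 0.05, and 0% of all genes were called; DESeq2 called 0. The 10-month differences were small, for example 0.16 (SE 0.27) for Fdps and −0.14 (SE 0.14) for Tm7sf2 on the log2 scale.

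At 3 weeks 0 of 30 genes were called between TBT and vehicle liver by edgeR, 0% of all genes were called and 0 of 30 had an unadjusted p under 0.05; DESeq2 called 0 of 30. The count was also 0 without TBT mouse 4. The TBT mice differed among themselves. Sqle was at 116, 96.1, 50.8, 58.6, 40.3, 12.2, 91.8 and 34.1 CPM in TBT mice 1 to 8, while vehicles ran from 80 to 109 CPM. TBT mice 5, 6 and 8 were below the vehicle range in 14, 19 and 17 of the 20 enzymes, beside 11.2%, 15.9% and 20.4% of all genes tested. Mouse 1 was above it in 14, beside 9.94% of all genes. Of the 30 log2 fold changes 25 were below 0, with a median of −0.16 beside 0.01 over all genes.

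Among vehicles, compared in batch 1 only, 11 of the 30 genes fell from 3 weeks to 5 months and 0 rose, where 12.3% of all genes fell and 11.9% rose. Lbr fell by 0.78 (SE 0.10, adjusted p = 5.56e-06) and Mylip by 0.70 (SE 0.11, adjusted p = 5.23e-05) on the log2 scale, and Lbr did not overlap, as 4.73% of all genes did not in this direction. Abcg5 and Lss also fell, by 0.78 (SE 0.17) and 0.84 (SE 0.20). From 5 to 10 months 6 rose and 0 fell, where 6.68% of all genes rose and 7.41% fell. They were Acat2, Fdft1, Tm7sf2, Scap, Insig1 and Soat2, with Soat2 at 0.38 (SE 0.09, adjusted p = 0.0104). The 5-month vehicles spread widely, with mouse 5 highest in 18 of the 20 enzymes and mouse 9, the library of 2.83 M counts, lowest in 15. Without 5-month vehicle 9, 12 genes fell and 1 rose from 3 weeks to 5 months. From 5 to 10 months 7 rose and 1 fell without it. Leaving out 5-month vehicle 5 raised the counts of 11 and 6 to 18 and 16. Without 5-month vehicle 4 they were 8 and 1. The second count was also 1 to 3 without any one of 5-month vehicles 1, 2 and 6 or 10-month vehicles 1, 2, 4 and 6, and none of the 6 genes was called in every alternative.

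Levels between genes were compared per exonic length, as RPKM, in 10-month vehicles. Sc5d was at 154 ± 38.2 RPKM (SD, n = 6), Insig1 at 136 ± 35.9 RPKM, Insig2 at 115 ± 28.4 RPKM, Ebp at 95.2 ± 5.28 RPKM and Hmgcs1 at 85.8 ± 22.8 RPKM. These neighbours lie within their spreads of one another. Lbr at 3.19 ± 0.503 RPKM and Ggps1 at 2.56 ± 0.218 RPKM were the lowest.

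Other genes around the pathway were counted beside shares over all genes of 18.5% lower and 20.3% higher at 5 months, and 24.7% lower and 27.7% higher in uninvolved against low-risk liver. Of 12 genes for sterol sensing and SREBP processing, 2 rose and 2 fell in 5-month high-risk against low-risk liver, and 1 rose and 5 fell in uninvolved against low-risk liver. The ubiquitin ligase gene Rnf145 rose by 0.60 (SE 0.11, adjusted p = 4.55e-05) on the log2 scale at 5 months. Of 14 cholesterol handling genes 3 rose and 3 fell at 5 months, and 4 rose and 4 fell in uninvolved liver, near the shares over all genes. Gramd1b, a carrier of cholesterol from the plasma membrane, was at 1.70 to 7.08 CPM in 5-month low-risk and at 6.48 to 11.2 CPM in high-risk liver (adjusted p = 5.96e-06). It was at 2.07 to 3.27 CPM in 10-month low-risk and at 6.02 to 15.4 CPM in uninvolved liver (1.78, SE 0.23, adjusted p = 1.3e-05). Of 10 isoprenoid branch genes 2 fell and 0 rose at 5 months, and 7 fell and 0 rose in uninvolved liver. In tumor against uninvolved liver 3 of these 10 rose (7.55% of all genes), with Nus1, for dolichol synthesis, at 0.54 (SE 0.10, adjusted p = 0.00486).

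Markers of other cells were read against the same shares over all genes (18.5% lower and 20.3% higher at 5 months, 24.7% and 27.7% in uninvolved liver). All 6 stellate and fibroblast markers rose in high-risk and in uninvolved against low-risk liver, and their sum ran from 190 to 397 CPM in 5-month low-risk and from 433 to 1310 CPM in high-risk liver. At 10 months it ran from 225 to 319 CPM in low-risk, from 429 to 676 CPM in uninvolved and from 369 to 672 CPM in tumor samples. All 4 markers of dividing cells rose in both risk comparisons, as did 3 and then 4 of the 4 ductal markers. Of 6 macrophage markers 2 rose and 1 fell at 5 months, and 1 rose and 4 fell in uninvolved liver. Hepatocyte markers summed to between 73400 and 168000 CPM in 5-month low-risk and between 56900 and 162000 CPM in high-risk liver, and 1 of 6 rose and 2 fell. At 10 months they summed to between 100000 and 110000 CPM in low-risk and between 63900 and 101000 CPM in uninvolved liver. Of 12 clock genes 4 fell in 5-month high-risk against low-risk liver, with sums of 307 to 655 CPM in low-risk and 196 to 408 CPM in high-risk liver. At 10 months the clock sums were 324 to 535 CPM in low-risk and 265 to 513 CPM in uninvolved liver. The labels give no time of day. The part of these markers and clock genes in the results was not tested.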

How the data were processed

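The deposited values were whole-number counts per gene, named in their file as adjusted by ComBat-seq from featureCounts counts. Trim Galore, HISAT2, featureCounts and mm10 were used by the authors, per the submitters' processing notes. Versions, strand setting and ComBat-seq settings are not given in the sources used here. Libraries were stranded total RNA, per the labels' protocols. Totals ran from 2.83 M to 45.4 M counts.

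Of 55536 identifiers, 55450 matched GENCODE M21 (GRCm38), which gave positions and exonic lengths. These counts were fitted in R 4.3.3 by edgeR 4.0.16 (TMM, filterByExpr, robust quasi-likelihood fit, Benjamini-Hochberg over all genes tested), with batch as a term at 5 months; DESeq2 1.42.0 was an alternative. The code was tested on simulated data. SEs were derived from the F statistics. Libraries S1 and S16 of 3-week vehicle mouse 3 were summed, as were uninvolved libraries 3 and 6, leaving 73 samples.

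Any of the 30 genes could be named; of other lists, counts and up to 2 genes with the smallest adjusted p. Genes and lists were chosen with earlier results of these data known. Same-numbered tumors and uninvolved livers come from the same mice by their titles; deviations of the 6 pairs correlated from −0.26 to 0.64, with 1 above 0.1. Other shared title numbers name different mice.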

Additional observations from a re-analysis of the deposited data

Results flagged for a closer look

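In groups of 4 to 10 samples, 17 of 240 gene and group combinations held a lowest sample far from the others of its group by Dixon's ratio on log2 CPM; chance at 1 in 20 gives 12. Vehicle 9 at 5 months, the library with 2.83 M counts, accounted for 7 of them, with log2 CPM of 1.53 for Mvk, 5.62 for Ebp, 6.07 for Insig2, 2.40 for Ggps1, 6.75 for Abca1, 2.51 for Mylip and 3.92 for Soat2. Low-risk mouse 9 at 10 months stood below its group in Idi1 (5.17), Sqle (5.53), Nsdhl (5.49) and Dhcr7 (5.27). Tumor 7 stood below the other tumors in Hmgcs1 (6.99), Sc5d (8.03), Dhcr7 (4.78) and Acat2 (4.91). High-risk mouse 10 at 5 months was low in Abca1 (7.63), and tumor 3 in Mylip (3.15).

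The tumor-labelled vehicle library of 10 months was used in none of the comparisons. Against the range of the 6 vehicle livers, 21 of the 30 genes were below it, 6 within it and 3 above it, while of all genes tested 43.3% were below and 34% above it. The 3 were Srebf2 at 50.3 CPM (vehicles 34.9 to 48.4), Abcg5 at 86.2 CPM (43.6 to 62.1) and Abcg8 at 88.0 CPM (66.3 to 84.4). Fdps was at 4.65 CPM there, below every other 10-month sample. It is 1 library with 14.1% mitochondrial counts, so these values have no replicate error.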

How the results depend on the processing

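Counts of called genes are given under each changed choice. For 5-month high-risk against low-risk liver the count was 1 in batch 1 alone. For high-risk against vehicle it was 0 in batch 1 alone, 11 with no filter on low counts, 5 with only the 2 groups compared and 0 with the title number as a replicate block, against 18. That block joins different mice, and only the 3 title numbers shared by the groups inform its contrast. Under it the log2 fold change turned to 0.53 for Mvk, 0.12 for Fdft1, 0.02 for Cyp51, 0.03 for Nsdhl and 0.23 for Ebp. Each of these had adjusted p = 1, and the cause was not tested. For low-risk against vehicle at 5 months DESeq2 called 1. For vehicles from 3 weeks to 5 months the count was 5 with no filter and 7 with the vehicle tumor counted as vehicle, against 11. From 5 to 10 months it was 10 by DESeq2, 3 with no filter, 1 with only the 2 groups compared, 0 with the replicate block and 0 with the vehicle tumor counted, against 6. Leaving out single samples gave 23 to 25 for high-risk against low-risk (each high-risk sample, and low-risk 24 alone of the low-risk samples), 9 to 22 for high-risk against vehicle (9 without vehicle 8), 24 to 26 for uninvolved against low-risk, 24 to 25 for uninvolved against vehicle, 2 to 9 for tumor against uninvolved, 21 to 24 for tumor against vehicle, 8 to 18 for vehicles from 3 weeks to 5 months and 1 to 16 from 5 to 10 months. Without the deviating libraries the count was 23 for high-risk against low-risk and 20 for high-risk against vehicle. Among vehicles it was 13 (12 lower, 1 higher) from 3 weeks to 5 months and 8 (1 lower, 7 higher) from 5 to 10 months. No paired analysis was possible for the high-risk against low-risk and uninvolved against low-risk tests, whose groups share 0 mouse numbers. The test of the difference between ages was not paired, since numbers shared between ages name different mice. Depth was lowest in 5-month vehicle 9, at 2.83 M counts.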
